A study of Mus musculus with 9 samples.

Results

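Integrins are the αβ receptors by which cells hold on to the extracellular matrix, and focal adhesion proteins tie their cytoplasmic tails to actin and to signalling. The 34 genes described here are 17 integrin subunits, 15 adaptor and signalling genes, the matrix ligand gene Fn1 and the dystroglycan gene Dag1. They were chosen by gene symbol from a list made with earlier results of these data known, out of 37975 rows of the expression table. All 34 were found, each on 1 row, and all 306 values over the 9 libraries carry the status OK.

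RNA was sequenced from 9 mouse cell libraries, 1 per group. Wild-type XEN cells (extraembryonic endoderm stem cells, line IM8AR) and wild-type R1 embryonic stem cells (ESC) form the first pair of lines. A second ESC line, with Sox17 (an endoderm transcription factor) under doxycycline (dox) control, gave the other 7. It was sampled untreated, at 4 early times (7, 21, 35 and 49 h) and at 6 days in 100 ng/ml dox, and as Sox17-XEN, labelled with 30 days of dox and 30 dox-free days, in an order the wording does not settle. Per the labels, ESC grew on a layer of mouse embryonic fibroblasts with serum and LIF, while for XEN cells the medium held serum and had been conditioned by fibroblasts. The Sox17 line received dox under ESC conditions, and SORT, unexplained, stands in the day 6 library name. Each XEN or ESC line is 1 line, and the series has no untreated culture matched in time to the dox samples.

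The primitive endoderm, from which XEN cells derive, lays down the basement membrane of laminin and type IV collagen that lines the early embryo. Laminin is bound mainly by the α3, α6 and α7 subunits with β1, and by α6 with β4. Fibronectin is bound chiefly by α5 with β1 and by αv with several β subunits through the short RGD motif. Collagen is bound by α1, α2 and α11 with β1. Mouse embryos without β1 integrin fail soon after implantation.

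The labels were checked against marker genes. Sox17 was at 239 FPKM in wild-type XEN and 0.163 FPKM in R1 ESC, and in the Sox17 line at 0.909 FPKM without dox, 283 FPKM at 7 h, 71.1 FPKM at day 6 and 101 FPKM in Sox17-XEN. Of 10 pluripotency markers 5 reached 1 FPKM in wild-type XEN and 3 in Sox17-XEN. All 9 measured did so in each ESC line without dox, and 8 of 9 measured at day 6. Their median was 1.20 FPKM in wild-type XEN and 0.295 FPKM in Sox17-XEN. It was 241.7 FPKM in R1 ESC, 199.9 FPKM without dox and 39.7 FPKM at day 6. Of 10 primitive endoderm markers 10 reached 1 FPKM in wild-type XEN, 9 of 9 measured in Sox17-XEN and 10 at day 6, against 4 in each ESC line without dox. Depth relative to R1 ESC, estimated from the commonest ratio of low values, ran from 61.8% at day 6 to 127% at 7 h, a ratio that 6.07% to 11.3% of the low values had. Blood markers summed to 4.55 to 25.7 FPKM over the libraries.

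Fibroblast markers differ between the libraries and move with several of the genes. The 26 markers summed to 64.9 FPKM in wild-type XEN and 1360.0 FPKM in R1 ESC. In the Sox17 line they summed to 2801 FPKM without dox, 1399, 1839, 2359 and 3646 FPKM at the 4 early times, 271 FPKM at day 6 and 1157 FPKM in Sox17-XEN. Between 23 and 26 of the 26 were at 1 FPKM or more in 8 libraries, and 8 of 26 in wild-type XEN. In bulk RNA, fewer cells of a type and less RNA per cell cannot be told apart.

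Levels are given in FPKM, a unit per transcript length, so that levels of different genes can be compared. Differences are in log2(FPKM + 1), which understates the difference of low genes. Between single libraries no test exists, and "higher" or "lower" by 1 or 2 log2 units is a statement of size alone, for genes at 1 FPKM or more in either library. Between the ESC lines without dox, the central 95% of differences ran from -0.90 to 1.01 log2 units over 8031 genes at 5 FPKM or more in both. At 1 FPKM or more, the authors' lower confidence bound was 0 for 96.8% of the members' values and 98.7% of all values. An interval that starts at 0 cannot lie above another, so the intervals could hardly separate any gene. No member had separate intervals in any of the 10 pairs compared, and this was not counted over all genes.

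**Figure D1:**
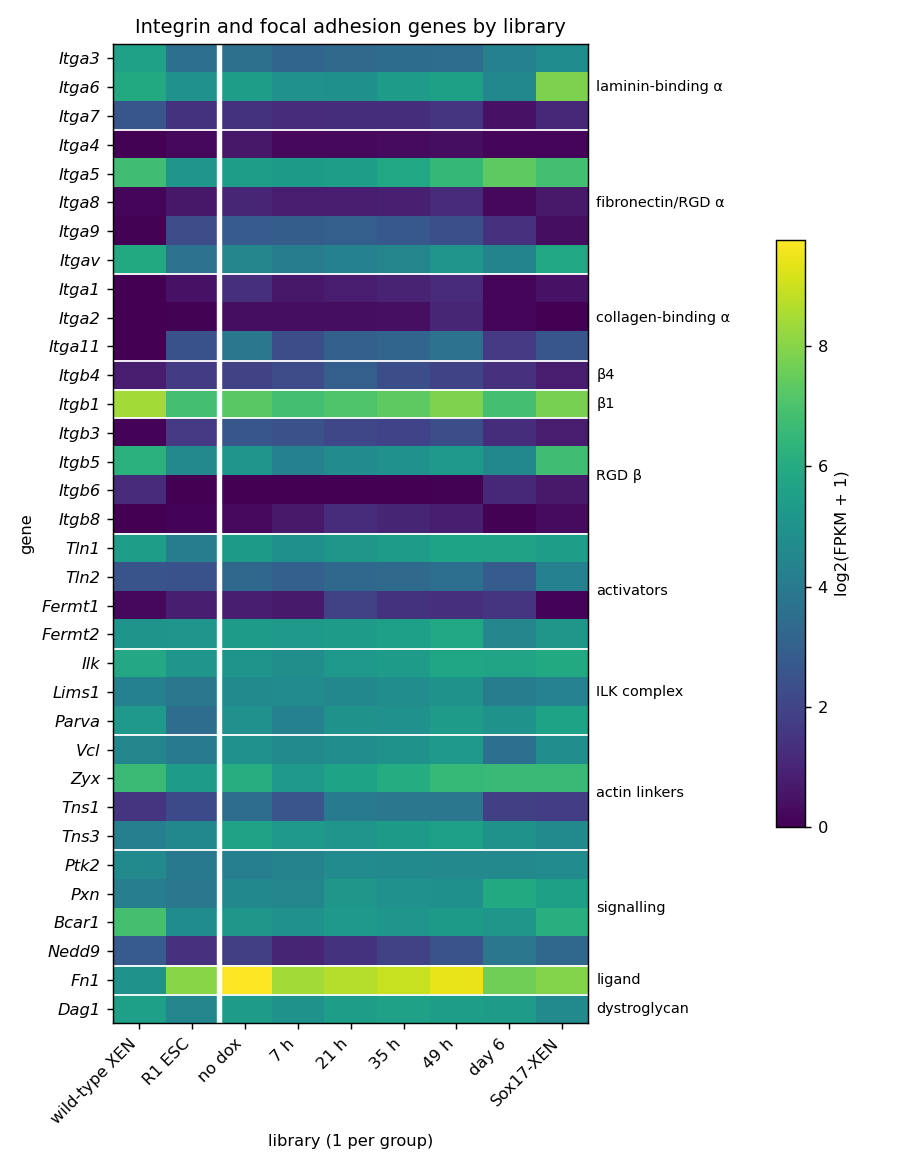
Level of each of the 34 genes (rows, grouped by role) in each of the 9 libraries (columns, 1 library per group) as log2(FPKM + 1). Fn1 and Itgb1 are the brightest rows, and the collagen-binding α subunits and Itga4 are dark in wild-type XEN.

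A core set of adhesion genes was present in all libraries. Of the 34 genes 21 were at 1 FPKM or more in all 9 libraries, among them 13 of the 15 adaptor and signalling genes and 6 of the 17 integrin subunits. Itga4, whose subunit binds fibronectin and the vascular molecule VCAM1, stayed under 1 FPKM in all 9 libraries, with at most 0.556 FPKM.

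Summed, the laminin-binding α subunits were higher in both XEN lines than in their ESC counterparts, with Itga3 and Itga6 higher in each. Itga6 (chromosome 2, 71583673 to 71696473, mm9) encodes the α6 chain, which pairs with β1 or β4. It was at 60.2 FPKM in wild-type XEN and 29.6 FPKM in R1 ESC. In the Sox17 line Itga6 was at 43.4 FPKM without dox, then 29.8, 28.9, 40.0 and 45.9 FPKM at the 4 early times, 22.5 FPKM at day 6 and 230.4 FPKM in Sox17-XEN. Sox17-XEN thus held by far the highest of the 9 values, while day 6 held the lowest. The difference of Sox17-XEN was 2.38 log2 units from the cells without dox, 3.30 log2 units from day 6 and 1.92 log2 units from wild-type XEN, and that of wild-type XEN from R1 ESC was 0.998 log2 units.

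Itga3 (chromosome 11, 94905788 to 94938115), encoding the α3 chain of another laminin receptor, was at 47.7 FPKM in wild-type XEN and 10.9 FPKM in R1 ESC. It was at 11.1 FPKM without dox, then 8.04, 9.43, 9.99 and 10.1 FPKM at the 4 early times, 18.4 FPKM at day 6 and 25.8 FPKM in Sox17-XEN in the Sox17 line. The 5 libraries from no dox to 49 h and R1 ESC lay close together, and day 6, Sox17-XEN and wild-type XEN stood above all 6 of them. Itga7, encoding the α7 chain known from muscle, was at 5.09 FPKM in wild-type XEN and 1.66 FPKM in R1 ESC. It was at 1.71 FPKM without dox, then 1.37, 1.44, 1.45 and 1.86 FPKM at the 4 early times, 0.375 FPKM at day 6 and 1.16 FPKM in Sox17-XEN, so that only the wild-type XEN library stood clearly above the others. Itgb4, the β chain that pairs with α6 alone, was at 0.670 FPKM in wild-type XEN and 2.22 FPKM in R1 ESC. It was at 2.67 FPKM without dox, then 3.66, 6.85, 4.06 and 3.06 FPKM at the 4 early times, 1.64 FPKM at day 6 and 0.718 FPKM in Sox17-XEN, with its highest value at 21 h.

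Among the fibronectin- and RGD-binding α subunits, Itga5 and Itgav carried nearly all of the expression. Itga5 (chromosome 15, 103174720 to 103197194) encodes α5, the main fibronectin receptor chain. It was at 109 FPKM in wild-type XEN and 33.4 FPKM in R1 ESC. In the course Itga5 was at 42.8 FPKM without dox, then 39.5, 43.5, 55.0 and 89.5 FPKM at the 4 early times, 163 FPKM at day 6 and 115 FPKM in Sox17-XEN. Each XEN line lay above each ESC line without dox, and day 6 lay above all other libraries. Itgav (chromosome 2, 83564554 to 83647073), which encodes αv, was at 59.97 FPKM in wild-type XEN and 11.4 FPKM in R1 ESC. Its levels in the Sox17 line were 21.7 FPKM without dox, then 16.4, 18.7, 20.8 and 33.3 FPKM at the 4 early times, 20.4 FPKM at day 6 and 55.2 FPKM in Sox17-XEN. For Itgav day 6 was not raised, in contrast to Itga5, and both XEN lines lay above the other 7 libraries. The listed loci of Itga6 and Itgav are shared with 4 and 2 other rows of the table, so reads of overlapping genes make these values less certain.

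Itga9 (chromosome 9, 118515808 to 118835387), whose subunit binds tenascin C and osteopontin, ran the other way. It was at 0.0395 FPKM in wild-type XEN and 3.69 FPKM in R1 ESC. The Sox17 line had Itga9 at 5.99 FPKM without dox, then 6.41, 6.76, 5.50 and 4.21 FPKM at the 4 early times, 1.65 FPKM at day 6 and 0.280 FPKM in Sox17-XEN. Both XEN lines were under 1 FPKM and all other libraries above it. Itga8, whose product binds nephronectin, had at most 1.28 FPKM in any library.

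Promoter sequences are shown for Itga5, Itgav and Itgb5, the RGD-binding subunit genes that rose in the XEN lines in the limma test. They are the 250 bases before the RefSeq gene start (GRCm38.p6), written 5′ to 3′ on the gene's strand, with capitals marking 3 searched motifs. These are the SOX core ACAAT, the GATA motif AGATAA and the GC box GGGCGG, each searched on both strands.
Itga5 (chr15:103366792-103367041, minus strand): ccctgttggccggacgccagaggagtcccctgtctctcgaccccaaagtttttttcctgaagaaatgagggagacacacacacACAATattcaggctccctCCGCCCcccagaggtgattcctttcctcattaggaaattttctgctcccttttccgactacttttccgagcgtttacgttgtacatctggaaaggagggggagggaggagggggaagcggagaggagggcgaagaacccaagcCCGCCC
Itgav (chr2:83724147-83724396, plus strand): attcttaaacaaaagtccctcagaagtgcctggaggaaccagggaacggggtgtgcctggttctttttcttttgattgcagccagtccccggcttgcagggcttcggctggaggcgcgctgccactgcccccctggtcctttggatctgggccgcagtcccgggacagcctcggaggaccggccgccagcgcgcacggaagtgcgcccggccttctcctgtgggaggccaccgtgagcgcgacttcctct
Itgb5 (chr16:33829415-33829664, plus strand): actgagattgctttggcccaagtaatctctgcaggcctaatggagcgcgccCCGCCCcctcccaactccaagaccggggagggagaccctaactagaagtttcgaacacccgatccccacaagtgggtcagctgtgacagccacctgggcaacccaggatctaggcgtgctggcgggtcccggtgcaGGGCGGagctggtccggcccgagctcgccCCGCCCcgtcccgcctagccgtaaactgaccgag
Itga5 held 1 match to the SOX core and 2 to the GC box, Itgb5 held 3 to the GC box, and Itgav held none of the 3 motifs in this window. Of the 34 genes 25 had an entry, with 32 promoters between them. The SOX core was in 9 of these 32 promoters and in 27.7% of all 32851 promoters, the GATA motif in 1 and in 9.99%, and the GC box in 19 and in 32.7%. A match of letters is not a binding site.

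The β subunits of the RGD receptors were led by Itgb5 (chromosome 16, 33829751 to 33949239), which encodes β5, a partner of αv. Itgb5 was at 73.7 FPKM in wild-type XEN and 23.4 FPKM in R1 ESC. It was at 33.8 FPKM without dox, then 18.8, 25.0, 29.7 and 38.2 FPKM at the 4 early times, 22.6 FPKM at day 6 and 108 FPKM in Sox17-XEN, and Sox17-XEN lay 2.20 log2 units above day 6. Itgb5 made up 98.1% of the summed FPKM of Itgb3, Itgb5, Itgb6 and Itgb8 in wild-type XEN and 98.7% in Sox17-XEN, against 91.5% in R1 ESC and 86.3% without dox. Itgb3, the β chain of platelet and endothelial receptors, was at 0.0617 FPKM in wild-type XEN and 2.11 FPKM in R1 ESC, and at 0.657 FPKM in Sox17-XEN against 5.20 FPKM without dox. Itgb6, an epithelial subunit that binds latent TGF-β, was at 1.32 FPKM in wild-type XEN, 0.579 FPKM in Sox17-XEN and 1.21 FPKM at day 6, and at most 0.0466 FPKM in the other 6 libraries. Itgb8 was highest at 21 h, with 1.37 FPKM against 0.177 FPKM without dox.

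Itgb1 (chromosome 8, 131209554 to 131257100) encodes β1, a partner of all 11 α chains listed, some of which, such as α6 and αv, have other partners too. It was at 339.7 FPKM in wild-type XEN and 113 FPKM in R1 ESC. Along the Sox17 line Itgb1 was at 152 FPKM without dox, then 114, 135, 161 and 236 FPKM at the 4 early times, 115 FPKM at day 6 and 218 FPKM in Sox17-XEN. The ratio of Itgb1 to the summed α subunits was 1.20 in wild-type XEN and 1.17 in R1 ESC. In the Sox17 line it was 1.06 without dox, 1.06, 1.15, 1.13 and 1.18 at the 4 early times, 0.501 at day 6 and 0.503 in Sox17-XEN. Day 6 and Sox17-XEN had the lowest ratios, and wild-type XEN did not share this.

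**Figure D2:**
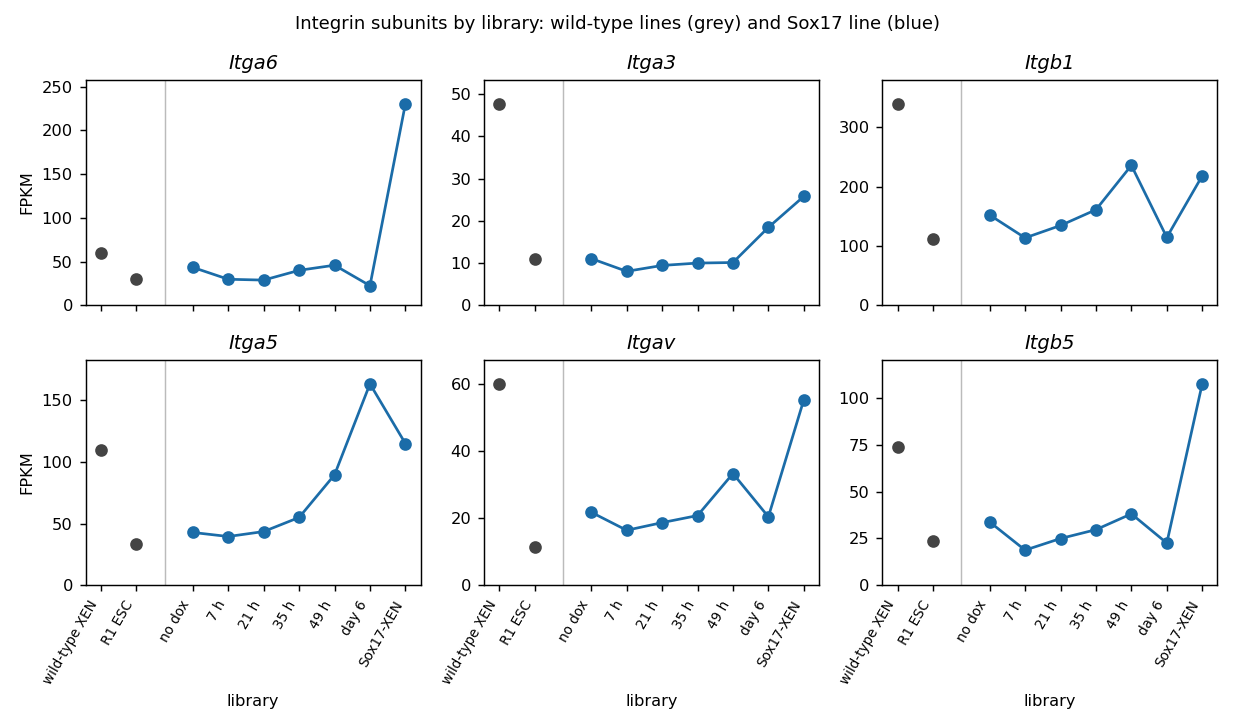
FPKM (y axes, each from 0) of 6 integrin subunits in wild-type XEN and R1 ESC (grey points) and in the Sox17 line from no dox to Sox17-XEN (blue points joined in order), 1 library per point. Itga6 and Itgb5 are highest in Sox17-XEN, Itga5 at day 6, and Itga3, Itgav and Itgb1 in wild-type XEN.

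Each of the 3 collagen-binding α subunits had its lowest level in wild-type XEN, and Itga11 was the most abundant of them. Itga11 (chromosome 9, 62525633 to 62631789), a fibroblast subunit for fibrillar collagen, was at 0.0169 FPKM in wild-type XEN and 4.48 FPKM in R1 ESC. It was at 13.9 FPKM without dox, then 4.11, 6.93, 8.19 and 11.8 FPKM at the 4 early times, 2.06 FPKM at day 6 and 5.10 FPKM in Sox17-XEN in the Sox17 line. Its lowest value was in wild-type XEN, next to it day 6, and its highest was without dox. Itga1 was at 0.0107 FPKM in wild-type XEN and 0.408 FPKM in R1 ESC, and at 0.397 FPKM in Sox17-XEN against 1.48 FPKM without dox. Itga2 had at most 1.07 FPKM, at 49 h.

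Laminin-binding, fibronectin- and RGD-binding and collagen-binding α subunits were compared as sums of FPKM within each library. The 3 laminin-binding subunits summed to 113 FPKM in wild-type XEN, 42.1 FPKM in R1 ESC, 56.1 FPKM without dox, 57.9 FPKM at 49 h, 41.3 FPKM at day 6 and 257 FPKM in Sox17-XEN. The 5 fibronectin- and RGD-binding subunits summed to 169.5 FPKM in wild-type XEN and 49.1 FPKM in R1 ESC, and to 72.1 FPKM without dox, 129 FPKM at 49 h, 185 FPKM at day 6 and 171 FPKM in Sox17-XEN. The 3 collagen-binding subunits summed to 0.0276 FPKM in wild-type XEN and 4.94 FPKM in R1 ESC, and to 5.53 FPKM in Sox17-XEN against 15.7 FPKM without dox.

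The ratio of laminin-binding to fibronectin- and RGD-binding sums was 0.666 in wild-type XEN and 0.858 in R1 ESC. In the Sox17 line it was 0.778 without dox, 0.621, 0.569, 0.626 and 0.450 at the 4 early times, 0.223 at day 6 and 1.504 in Sox17-XEN. Day 6 had the lowest ratio, with Itga5 alone at 71.2% of all α subunit FPKM. Sox17-XEN had the highest, and the only one above 1, with Itga6 at 53.1%. Relative to their ESC counterparts the XEN lines differ in sign, with a log2 ratio changed by -0.37 in wild-type XEN and by 0.95 in Sox17-XEN. A sum is led by its most abundant genes. With the mean of log2(FPKM + 1) per class in place of sums, the laminin-binding class stood above the other in all 9 libraries, since the low Itga4, Itga8 and Itga9 then count as much as Itga5. The opposite signs disappear on that scale, where the difference between the classes was 1.18 log2 units larger in both wild-type XEN and Sox17-XEN than in their ESC counterparts, and wild-type XEN had the largest. Low genes enter this change too. Itga9 was lower in the wild-type and Sox17 pairs (-2.17 and -2.45), as were Itga4 and Itga8 by less. Itga5 (1.68 and 1.40) and Itgav (2.30 and 1.31) were higher, as were Itga3 (2.03 and 1.15) and Itga6 (0.998 and 2.38). Itga7 differed by 1.20 and -0.32.

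**Figure D3:**
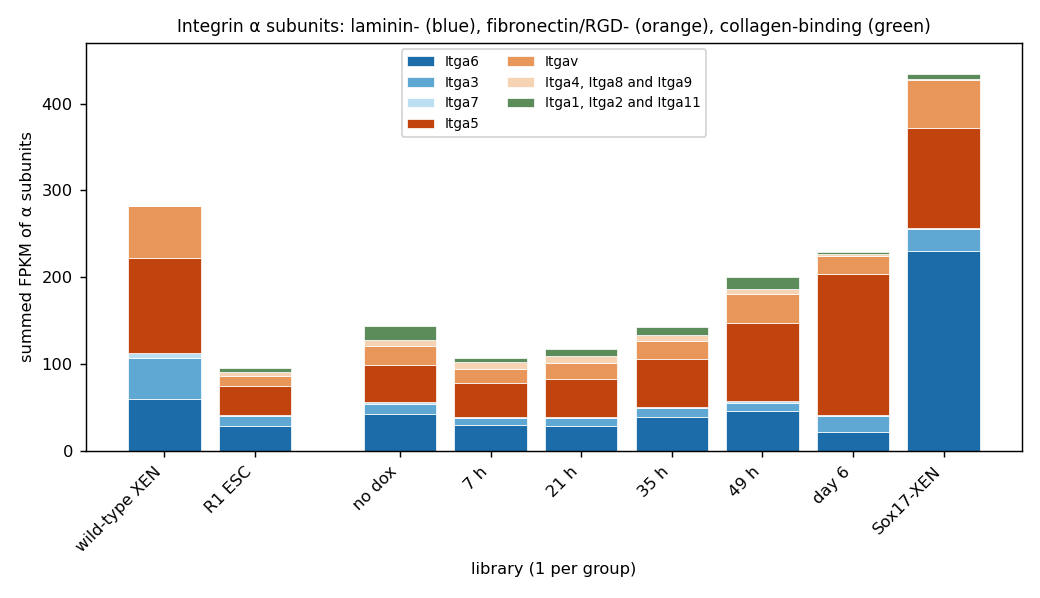
Summed FPKM of the 11 integrin α subunits (y axis from 0) in each library (x axis, 1 library per group), stacked by gene and coloured by ligand class. Itga5 takes most of the bar at day 6 and Itga6 most of it in Sox17-XEN, while the green collagen-binding part is not visible in wild-type XEN.

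Fn1 (chromosome 1, 71632094 to 71709417), the gene of fibronectin itself, was the most abundant member in 8 of the 9 libraries and its differences were among the largest. It was at 31.5 FPKM in wild-type XEN and 259.8 FPKM in R1 ESC. Fn1 in the Sox17 line was at 869.8 FPKM without dox, then 343, 409, 495 and 703 FPKM at the 4 early times, 200.005 FPKM at day 6 and 247 FPKM in Sox17-XEN. Wild-type XEN held the lowest value and the cells without dox the highest. The order over the libraries is close to that of the summed fibroblast markers, which also had their lowest value in wild-type XEN and their second lowest at day 6. Whether cells of the feeder layer contribute to Fn1, Itga11, Itgb3, Tns1 or other members was not tested. Fn1 shares its listed locus with Apol7d.

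**Figure D4:**
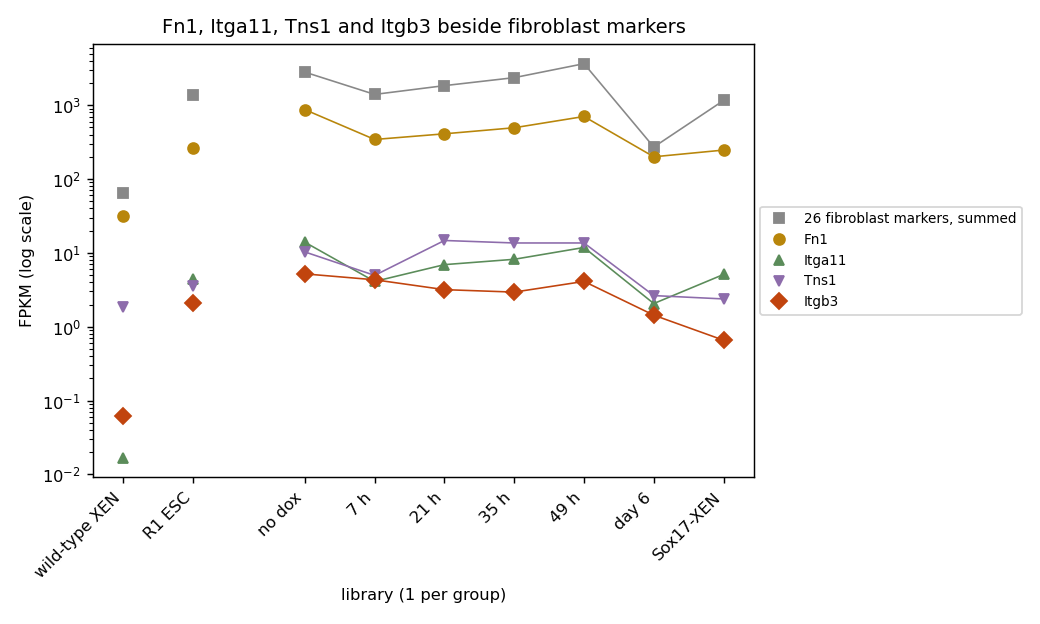
FPKM on a log scale (y axis) of Fn1, Itga11, Tns1 and Itgb3 and the summed FPKM of 26 fibroblast markers (grey squares) in each library (x axis, 1 library per group, with the Sox17 line joined in order). The markers sum to 64.9 FPKM in wild-type XEN and 271 FPKM at day 6, the lowest values among the libraries.

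Dag1 (chromosome 9, 108108286 to 108166255) encodes dystroglycan, a laminin receptor outside the integrin family. It was at 45.2 FPKM in wild-type XEN and 21.4 FPKM in R1 ESC. Among the Sox17 libraries Dag1 was at 40.8 FPKM without dox, then 30.6, 42.8, 46.7 and 42.1 FPKM at the 4 early times, 40.2 FPKM at day 6 and 23.8 FPKM in Sox17-XEN. The XEN lines did not share a direction, with a difference of 1.04 log2 units in wild-type XEN from R1 ESC and of -0.76 log2 units in Sox17-XEN from the cells without dox.

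Of the adaptor and signalling genes, Bcar1, Nedd9 and Tns1 held the extremes between XEN and ESC lines. Over these 15 genes the differences ran from -0.70 (Tns1) to 2.15 log2 units (Bcar1) in wild-type XEN against R1 ESC, with a median of 0.49. In Sox17-XEN against no dox they ran from -1.74 (Tns1) to 1.45 (Nedd9), with a median of 0.47, and at day 6 from -1.63 (Tns1) to 2.01 (Nedd9), with a median of 0.09. Bcar1, the scaffold p130Cas phosphorylated at adhesions, was at 119 FPKM in wild-type XEN and 26.04 FPKM in R1 ESC. It was at 34.7 FPKM without dox, then 29.4, 37.5, 33.7 and 39.2 FPKM at the 4 early times, 34.9 FPKM at day 6 and 70.0 FPKM in Sox17-XEN in the Sox17 line, with both XEN lines on top. Nedd9, a scaffold of the same family, was at 5.93 FPKM in wild-type XEN and 1.66 FPKM in R1 ESC. It was at 2.62 FPKM without dox, then 0.993, 1.72, 2.80 and 4.67 FPKM at the 4 early times, 13.6 FPKM at day 6 and 8.92 FPKM in Sox17-XEN, and peaked at day 6. Pxn, the gene of the scaffold paxillin, was also highest at day 6, at 60.2 FPKM against 22.4 FPKM without dox.

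Ilk, Lims1 and Parva encode the complex that links β tails to actin. Ilk was at 58.7 FPKM in wild-type XEN and 60.6 FPKM in Sox17-XEN, against 34.4 FPKM in R1 ESC and 32.7 FPKM without dox. Parva was at 38.3 and 49.9 FPKM in the XEN lines, against 10.3 and 29.6 FPKM in the ESC lines, which differed from each other by 1.43 log2 units. Lims1 stayed between 13.8 and 30.8 FPKM over the 9 libraries. The focal adhesion kinase gene Ptk2 stayed between 14.4 and 25.3 FPKM, and the talin gene Tln1, an integrin activator, between 16.8 and 50.3 FPKM. Tln2, the second talin, was at 18.8 FPKM in Sox17-XEN against 4.82 FPKM in wild-type XEN, a difference of 1.77 log2 units.

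The activator kindlin is encoded by Fermt2, at 22.1 to 56.0 FPKM, and by Fermt1, the epithelial form. Fermt1 was at 0.150 FPKM in wild-type XEN and 0.0727 FPKM in Sox17-XEN, against 0.789 FPKM in R1 ESC and 0.764 FPKM without dox, and was highest at 21 h with 2.78 FPKM. Of the actin linkers, the vinculin gene Vcl had its lowest value at day 6 (10.9 FPKM against 29.6 FPKM without dox). The zyxin gene Zyx ranged from 38.2 to 100.2 FPKM. The tensin genes Tns1 and Tns3, whose products bind actin and β tails, were at 2.38 and 24.6 FPKM in Sox17-XEN, against 10.3 and 48.8 FPKM without dox.

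The lines of XEN type and of ESC type were compared with limma on log2(FPKM + 1). The test took wild-type XEN and Sox17-XEN against R1 ESC and the Sox17 line without dox (2 libraries each). Sox17-XEN comes from the Sox17 line, so the same line is on both sides, which this fit ignores. Of the 33 members tested 5 rose and 3 fell at an adjusted p under 0.05. That is 15.2% and 9.09% of the members, beside 11.6% and 9.89% of all 14925 genes tested, so these shares are near the background. Itga5 (1.54 log2 units, SE 0.21, adjusted p = 0.0224), Itgav (1.804 log2 units, SE 0.36, adjusted p = 0.0410), Itgb5 (1.63 log2 units, SE 0.31, adjusted p = 0.0385), Bcar1 (1.57 log2 units, SE 0.34, adjusted p = 0.0487) and Ilk (0.81 log2 units, SE 0.17, adjusted p = 0.0455) rose in the limma fit. Itga9 (-2.31 log2 units, SE 0.31, adjusted p = 0.0216), Itgb4 (-1.02 log2 units, SE 0.21, adjusted p = 0.0420) and Fermt1 (-0.68 log2 units, SE 0.11, adjusted p = 0.0306) fell in it. Itgb5, Itgb4, Ilk and Fermt1 are named here because the test called them, after their values were seen. Fermt1 was under 1 FPKM in all 4 lines and entered through other libraries.

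Itga3 (limma, 1.59 log2 units, SE 0.36, adjusted p = 0.0515), Itga6 (1.69 log2 units, SE 0.72, adjusted p = 0.164), Itgb1 (1.05 log2 units, SE 0.33, adjusted p = 0.0964) and Fn1 (-2.41 log2 units, SE 1.22, adjusted p = 0.216) did not pass. The median difference of the fibroblast markers was -4.03 log2 units in wild-type XEN from R1 ESC and -1.03 in Sox17-XEN from no dox, and their part in the genes lower in XEN lines was not tested. The median difference was 0.44 log2 units over the 33 members and 0.21 over all genes. After rescaling each library to a common median, Itga5 still rose and Itga9, Itgb4 and Fermt1 still fell, while Itgav, Itgb5, Bcar1 and Ilk no longer passed. The share of all calls that were higher was 53.9% as deposited and 33.7% after rescaling. Fits without R1 ESC, or without the Sox17 line lacking dox, leave a lone ESC line, whose variation cannot be measured. Without R1 ESC the median difference was 0.14 log2 units over the members and 0.19 over all genes. Without the Sox17 line lacking dox it was 0.64 and 0.23.

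Between the single libraries of each pair of lines, few members were past 2 log2 units. The median over all genes was itself 0.33 log2 units in the wild-type pair and 0.26 in the Sox17 pair, and over the measured members 0.88 and 0.18. In wild-type XEN against R1 ESC 3 of 28 measured members were higher (Itgav, Bcar1 and Itga3) and 3 lower (Fn1, Itga11 and Itga9), beside 9.15% and 7.27% of all genes. After median rescaling none of the 3 higher members was past 2 log2 units, and 3 were still lower. By at least 1 log2 unit 13 were higher and 4 lower, beside 28.5% and 17.7% of all genes. In Sox17-XEN against no dox 1 of 29 was higher (Itga6) and 1 lower (Itga9), beside 6.34% and 5.51%. By at least 1 log2 unit 8 were higher and 6 lower, beside 22.7% and 16.1%.

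Both pairs shared a direction of at least 1 log2 unit for 9 of 30 measured members. Itga3, Itga5, Itgav, Itgb5 and Nedd9 were higher in both, and Itga9, Itga11, Itgb3 and Fn1 lower in both. Over all genes 15.3% were higher and 10.8% lower in both by that size. Sox17-XEN against wild-type XEN had 2 members higher by at least 2 log2 units, Fn1 (2.93) and Itga11 (2.59), and 0 lower, beside 3.26% and 1.9% of all genes. Of 25 measured fibroblast markers 20 were higher by that size in the same comparison, with a median of 3.96 log2 units, and their part in these differences was not tested.

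**Figure D5:**
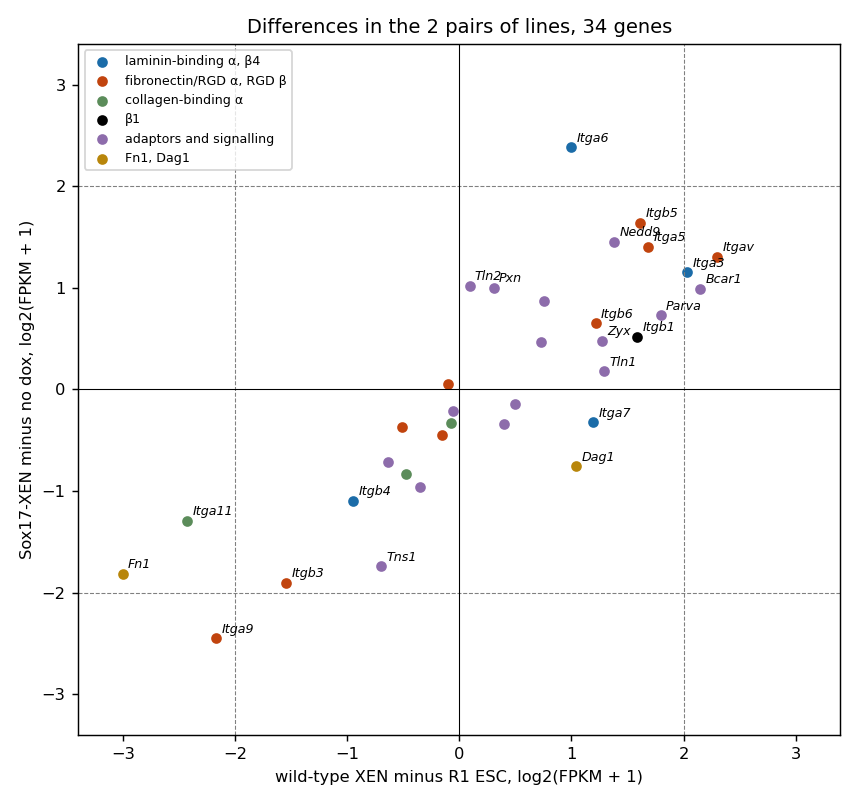
Difference in log2(FPKM + 1) of wild-type XEN minus R1 ESC (x axis) and of Sox17-XEN minus the Sox17 line without dox (y axis) for the 34 genes, coloured by role, 1 library per group. Dashed lines mark 2 log2 units, and Itga9 is the gene past them in both pairs, with -2.17 and -2.45.

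No member was past 2 log2 units from no dox at the 4 early times, and few of all genes were. The shares of all genes higher and lower by that size were 0.515% and 0.392% at 7 h, 0.842% and 0.504% at 21 h, 0.698% and 0.523% at 35 h, and 0.8% and 0.529% at 49 h. These comparisons share the library without dox, in which fibroblast markers were high. The markers' median difference from no dox rose from -1.11 log2 units at 7 h to -0.16 at 49 h. Their sum rose from 1399 to 3646 FPKM. Over the measured members the median rose from -0.38 to 0.32, and over all genes from -0.11 to 0.04. Itga5, Itgb1 and Itgav rose too. At day 6 Itgb1 and Itgav fell, as the markers did, while Itga5 rose further. The markers' part in these changes was not tested. At 7 h 0 of 29 measured members were higher by at least 1 log2 unit (beside 1.35% of all genes) and 2 lower (2.15%), which were Itga11 (-1.55) and Fn1 (-1.34). At 21 h 3 of 31 were higher (3.52%), namely Itgb4 (1.10), Fermt1 (1.10) and Itgb8 (1.01), and Fn1 (-1.09) was lower (2.21%). At 35 h 0 were higher (2.96%) and 0 lower (2.3%). At 49 h Itga5 (1.05) was higher (3.69%) and 0 lower (2.59%). The cells without dox themselves differed from R1 ESC by at least 1 log2 unit in 6 of 29 members, all higher (4.06%) and 0 lower (2.1%). These were Fn1 (1.74), Itga11 (1.45), Parva (1.43), Tns1 (1.30), Tln1 (1.15) and Tns3 (1.07). In the same pair the fibroblast markers had a median difference of 1.18 log2 units, with 2 of 26 higher by at least 2. Their part in these differences was not tested.

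Fn1 and Itga11 were lower and Nedd9 higher at day 6. Against no dox 1 of 31 measured members was higher by at least 2 log2 units, Nedd9 (2.01), and 2 lower, Itga11 (-2.29) and Fn1 (-2.12), beside 5.69% and 4.27% of all genes. After median rescaling 0 were higher. By at least 1 log2 unit Nedd9, Itga5 (1.91), Pxn (1.39) and Itgb6 (1.13) were higher and 7 members lower, beside 19.5% and 14.1%. The 7 were Fn1, Itga11, Tns1, Itga9, Vcl, Itgb3 and Itga1. Fibroblast markers were lower too at day 6, with a median difference of -2.77 log2 units, and their part in these differences was not tested. From day 6 to Sox17-XEN, Itga6 (3.30) and Itgb5 (2.20) were higher by at least 2 log2 units in Sox17-XEN and 0 members lower, beside 3.41% and 4.17% of all genes.

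A slope over the ordered times from no dox to day 6 was tested with limma in the 6 libraries. It called 0 of 33 members, beside 0.0% of all 14933 genes. At an unadjusted p under 0.05 4 members sloped upward and 2 downward, against 2442 and 1305 of all genes. With time in hours in place of the order, 5 members sloped upward and 3 downward in limma at an adjusted p under 0.05, beside 4307 and 2033 of all genes. The slope over the order without day 6 called 0 members, with 3 upward and 0 downward at an unadjusted p under 0.05, beside 0 of all 14955 genes called and 1842 upward and 1123 downward at that p.

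Other genes of the adhesion pathway were counted from 4 further lists in both pairs of lines, by at least 2 log2 units in the same direction, which 3.96% of all genes passed as higher and 3.69% as lower. Of 37 measured adhesion genes 2 were higher and 2 lower. Parvb, a sister gene of Parva, was at 87.4 FPKM in wild-type XEN and 202 FPKM in Sox17-XEN, against 8.49 FPKM in R1 ESC and 16.9 FPKM without dox. Kank1, whose product binds talin, was at 22.9 and 53.9 FPKM in the XEN lines, against 4.49 and 5.602 FPKM in the ESC lines. Fblim1 (-4.26 in the wild-type pair, -3.66 in the Sox17 pair), whose product binds filamin and kindlin, and the caveolin gene Cav1 (-4.31 and -2.16) were lower. Like the summed fibroblast markers, Cav1 was lowest in wild-type XEN (0.215 FPKM) and next lowest at day 6 (4.55 FPKM). The part of fibroblast markers in this difference was not tested.

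Of 22 measured matrix ligand genes 4 were higher, the basement membrane linkers Nid1 (3.74 and 4.56) and Nid2 (3.64 and 2.598), the laminin chain Lamb2 (2.29 and 2.69) and the matricellular gene Ctgf (3.34 and 2.26). The osteopontin gene Spp1, whose product is a ligand of α9 and αv integrins, was lower, at 1.77 FPKM in wild-type XEN and 84.6 FPKM in Sox17-XEN, against 856 FPKM in R1 ESC and 1053 FPKM without dox. The laminin genes Lama1, Lamb1 and Lamc1 have no usable estimate in either XEN line. Of 28 measured signalling genes 0 were higher and 2 lower, Pak1 (-3.90 and -3.19) and Elmo1 (-3.08 and -3.08). Of 3 measured other integrins, the leukocyte subunit gene Itgb7 (-2.79 and -2.63) was lower.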

How the data were processed

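Total RNA of 9 mouse libraries was extracted with Trizol and prepared with a TruSeq RNA kit, per the labels. Per the submitters' processing notes, TopHat2 2.0.11, Cufflinks 2.1.2 and Cuffdiff (no version given) were used with build mm9. The authors deposited FPKM per gene with confidence bounds and a status word, which is not a number (the other value type in the table). No counts are given, strand use is not given in the sources used here, and the absolute depth is unknown. A value with another status than OK counts as missing.

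FPKM was used as log2(FPKM + 1). Between single libraries no test was made. limma 3.58.1 in R 4.3.3 (empirical Bayes with a mean trend, two-sided, Benjamini-Hochberg over all genes reaching 1 FPKM in some library, adjusted p under 0.05) compared 2 XEN with 2 ESC lines and fitted the slope over 6 libraries. Each library is a unit, although Sox17-XEN and the cells without dox are the same line. The p-values measure the spread between these libraries only. The fits were checked on simulated data with the same noise level for every gene and with changes larger than those of the members. This check does not cover changes of the members' size. The remaining steps used Python 3.11.15 with numpy 2.4.6 and pandas 2.3.3, and figures with matplotlib 3.10.9.

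The members and lists were chosen with earlier results of these data known. Values in every library were to be given for the laminin-binding α subunits, Itga5, Itgav, Itgb1, Fn1, Dag1 and members past 2 log2 units in wild-type XEN, day 6 or Sox17-XEN against their ESC library, and pathway genes named if past 2 log2 units in both pairs of lines. Itgb4 and Itgb5, outside this rule, were added after their values were seen. The symbol loci are 1-based in mm9, and 20 of the 34 share their listed locus with other rows. Promoters are RefSeq's (GRCm38.p6), matched by symbol. Alternatives tried were a pseudocount of 0.1, no filter on low values, median rescaling, a difference of 1 log2 unit, summed rows, non-overlapping intervals, no mean trend, other time scales, other class memberships, leaving out each line and, added after seeing the data, a block for the pairs of lines.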

Additional observations from a re-analysis of the deposited data

Results flagged for a closer look

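Of the results, 4 members and 1 ratio differed in sign between the 2 pairs of lines. The differences between the pairs were not tested, since each has 1 library per group, and of the 30 measured members 4 (13.3%) had opposite signs, beside 19.5% of all genes. Dag1 differed by -0.76 log2 units in Sox17-XEN from no dox and by 1.04 in wild-type XEN from R1 ESC, a gap of -1.797. Itga7 differed by -0.32 in the Sox17 line and by 1.20 in the wild-type pair, a gap of -1.52. Lims1 differed by -0.34 and 0.40, a gap of -0.74, and Vcl by -0.14 and 0.49, a gap of -0.64. The log2 ratio of laminin-binding to fibronectin- and RGD-binding α subunits was 0.95 higher in Sox17-XEN than without dox and changed by -0.37 in wild-type XEN from R1 ESC, a gap of 1.32. This gap exists for sums only, since with class means of log2(FPKM + 1) the change was 1.18 in both pairs. Those means weight low genes such as Itga9 as much as Itga5.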

How the results depend on the processing

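Every comparison rests on single libraries or on 2 lines a side, and the values below are counts of members unless stated. Between single libraries no member passed once confidence intervals had to be separate (0 in each pair). With lower bounds of 0 for 96.8% of the members' values and 98.7% of all values at 1 FPKM or more, hardly any gene could pass. Nothing about the members follows from this check. Summing rows could change nothing, as each member has 1 row. At 1 log2 unit in place of 2, the members higher and lower numbered 13 and 4 in wild-type XEN against R1 ESC, 4 and 7 at day 6 and 8 and 6 in Sox17-XEN against no dox, 5 and 2 in Sox17-XEN against day 6, 5 and 1 in Sox17-XEN against wild-type XEN, and 6 and 0 without dox against R1 ESC. In the early course they were 0 and 2 (7 h), 3 and 1 (21 h), 0 and 0 (35 h) and 1 and 0 (49 h). With a pseudocount of 0.1, 1 was higher at 21 h, 2 were higher and 4 lower at day 6, 3 were lower in Sox17-XEN against no dox, 2 against day 6 and 1 against wild-type XEN. After median rescaling 0 were higher in wild-type XEN and at day 6, and 2 were lower in Sox17-XEN against no dox. For the pseudocount and the rescaling, no share of all genes is given. The same holds at 1 log2 unit for Sox17-XEN against day 6 and against wild-type XEN. Those counts therefore have no background beside them.

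In limma between the line types 5 members rose and 3 fell, beside 1729 and 1476 of all 14925 genes. Without the filter on low values 2 rose and 1 fell, beside 806 and 1300 of 26325 genes. After rescaling 1 rose and 3 fell, beside 949 and 1865 of 14925. Without the mean trend 3 rose and 2 fell, beside 1713 and 1179. With a difference of 2 log2 units also required, 0 rose and 1 fell, beside 724 and 581. Leaving out 1 line assumes that the lone line of a type varies like the pair of the other type. Each such fit called fewer members and fewer of all genes. Over the members and over all genes the median difference was 0.14 and 0.19 log2 units without R1 ESC. It was 0.64 and 0.23 without the cells lacking dox, 0.32 and 0.19 without wild-type XEN, and 0.03 and 0.20 without Sox17-XEN. Fewer lines were compared in these fits. Itga3 passed without Sox17-XEN (2.02, adjusted p = 0.0417) and Itga6 without wild-type XEN (2.65, adjusted p = 0.0448), and Itgb6 with a pseudocount of 0.1 (3.25, adjusted p = 0.0228), without wild-type XEN (0.65, adjusted p = 0.0425) and without Sox17-XEN (1.21, adjusted p = 0.0340). Dag1 (0.14) turned to -0.28 after rescaling and ran from -0.31 to 0.59 over the lines left out, and the cause was not tested. For the slope, 5 and 3 members passed with time in hours, and 3 and 2 with Sox17-XEN as a further step, beside 1282 and 727 of all 14907 genes. The slope in hours rests largely on the 1 library of day 6.

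With class means of log2(FPKM + 1) in place of sums, the laminin-binding class stood above the fibronectin- and RGD-binding class by 2.13 in wild-type XEN, 0.95 in R1 ESC, 0.61 without dox, 0.46, 0.45, 0.54 and 0.41 at the 4 early times, 0.38 at day 6 and 1.79 in Sox17-XEN. Sums are led by Itga5, Itga6 and Itgav. Moving Itga1 and Itga2 or leaving out Itga4 and Itga9 did not change the side of the ratio or move it by over 1.5 times. The labels pair no replicates, but Sox17-XEN and the cells without dox are the same line. A replicate block for the pairs of lines (wild-type XEN with R1 ESC, which are separate lines, and Sox17-XEN with no dox), chosen after seeing the data, left 2 risen (Itga5 and Itgb5) and 3 fallen (Itga9, Itgb3 and Fn1), with 1079 and 1120 of all genes. Depth limits genes under 1 FPKM, such as Itga4, Itgb6, Itgb8 and Fermt1, for which no counting error can be given.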
